A study of Mus musculus with 12 samples.

Results

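Follicular B cells are resting lymphocytes that carry surface immunoglobulin and fill the follicles of lymphoid tissue. In the ileum these follicles lie in Peyer's patches and in smaller solitary clusters below the epithelium. A follicular B cell senses antigen through a surface immunoglobulin paired with signalling chains, takes up complement-coated antigen through a complement receptor, and finds the follicle by following a chemokine made by its stroma. A set of 8 genes of this cell were followed here by their symbols, and all 8 were found among the 45808 genes of the deposited table. They are Ms4a1, Cr2, Fcer2a and Cxcr5, which encode surface proteins, Cd79b, Blnk and Bank1, which act in B cell receptor signalling, and Pax5, a transcription factor of B cell identity. The members were named with earlier results of these data known.

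The study compared distal ileal tissue of BALB/c mice treated with Porphyromonas gingivalis, an oral bacterium associated with periodontitis, with the same tissue of BALB/c mice given phosphate-buffered saline (PBS), with 6 libraries in each group. By its title, the series asks how this bacterium relates to inflammation of the intestine. The sources used here give no route, dose, duration or age, and no label states that each library came from its own mouse, so p-values measure the spread between these libraries, which may be partly technical. RNA was polyadenylated RNA from whole tissue, and fewer B cells or less RNA per B cell cannot be told apart in it.

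Values are the authors' normalized counts, which are gene counts divided by a size factor for each library. Recovered depth was 6553306 to 9875045 reads in the P. gingivalis libraries and 7610970 to 10378841 reads in the PBS libraries. The ileal tissue label was checked against Fabp6, the bile acid binding protein of ileal enterocytes. Its normalized count was 2.52 in P. gingivalis replicate 1, 16.002 in P. gingivalis replicate 5 and 4.32 in PBS replicate 6, and at least 11246 in the other 9 libraries. The epithelial genes Vil1 and Epcam were well above 0 in all 12 libraries, with Epcam at 7365 to 17095 in the P. gingivalis libraries and 11161 to 15555 in the PBS libraries. The enterocyte genes Fabp1 and Lct were highest in the 3 libraries low in Fabp6. Fabp1 was 26745 in P. gingivalis replicate 1, 21996 in P. gingivalis replicate 5, 16938 in PBS replicate 6 and at most 1821 elsewhere. Lct was 18205, 27629 and 22535 in those libraries, in the same order, and at most 9933 elsewhere. Lowest of the 12 libraries for both genes was P. gingivalis replicate 6, with Fabp1 at 18.3 and Lct at 0.87, or 1 read. The next lowest was PBS replicate 1, with 252 and 748. Because of their low Fabp6, results are also given without P. gingivalis replicates 1 and 5 and PBS replicate 6. The other 9 libraries include P. gingivalis replicate 6 and are not uniform in these enterocyte genes.

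All 8 members had reads in all 12 libraries, and 7 of them were high or low together in libraries of both groups. For these 7, the libraries with the 5 highest values were always P. gingivalis replicates 3, 4 and 6 together with PBS replicates 1 and 6. Over all 15025 genes tested this held for 125, or 0.832%. All 8 members had a higher log2 mean in the P. gingivalis libraries, by 0.37 to 1.06 log2 units, and 0 of the 8 passed the test over all genes (limma with Benjamini-Hochberg adjustment). The same test called 0 of 15025 genes, a background of 0%. On the recovered reads edgeR also called 0 members and 0% of genes, and DESeq2 called 0 members and 0.181% of genes. For 0 of the 8 members did the groups lie apart without overlap, as they did for 0.166% of all genes tested.

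**Figure D1:**
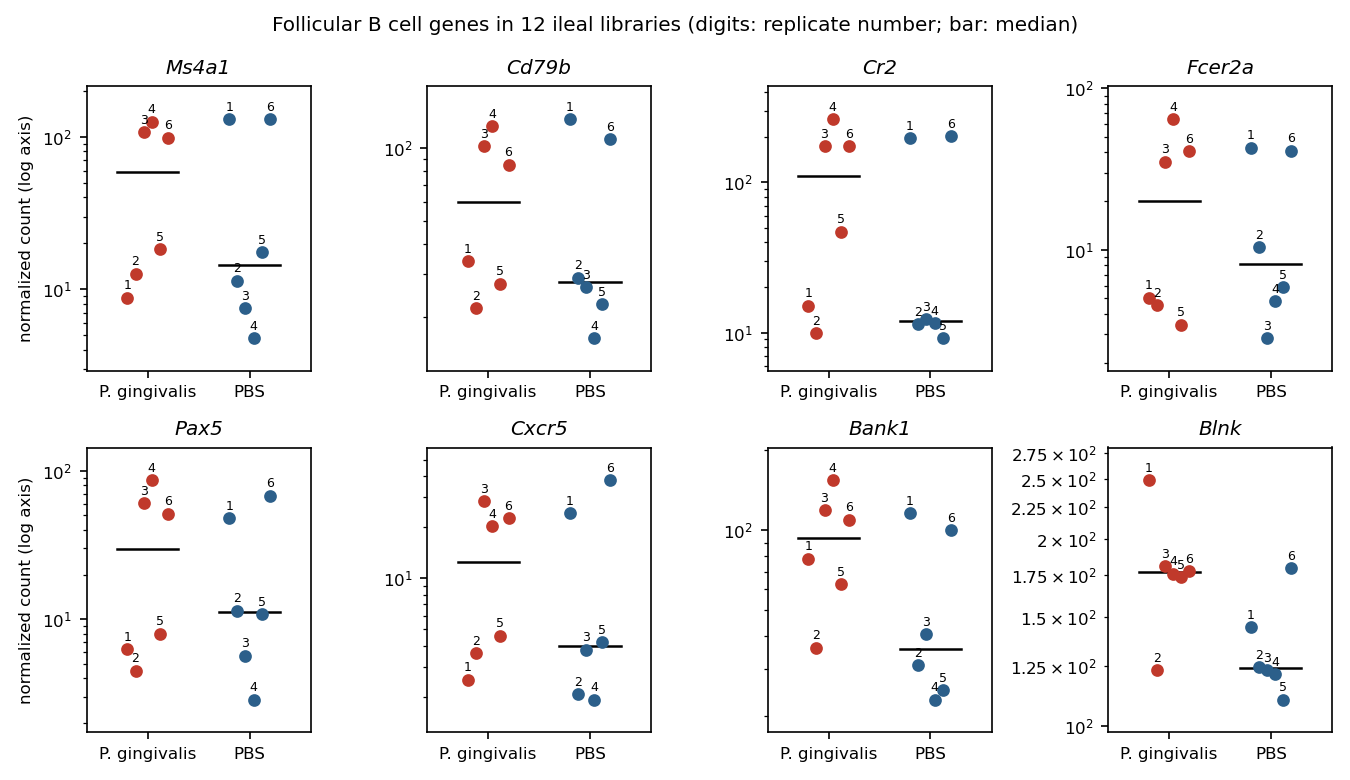
Normalized counts of the 8 genes in each library, on log axes whose range differs between panels, with P. gingivalis libraries in red and PBS libraries in blue. Digits are replicate numbers and bars are group medians. P. gingivalis replicates 3, 4 and 6 and PBS replicates 1 and 6 lie above the rest for every gene but Blnk.

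Among the surface proteins, Ms4a1 encodes CD20, a membrane protein carried by mature B cells. Its normalized counts were 8.82, 12.7, 107, 126, 18.3 and 98.3 in P. gingivalis replicates 1 to 6, and 131, 11.4, 7.57, 4.81, 17.6 and 129.6 in PBS replicates 1 to 6. In 3 P. gingivalis libraries and 2 PBS libraries it was near or above 100, in the other 7 it was below 20, and the groups overlapped over nearly their whole range. Ms4a1 averaged 61.8 ± 54.0 in the P. gingivalis libraries and 50.3 ± 62.0 in the PBS libraries (SD, n = 6 each). The log2 difference was 0.69 (SE 0.91, 95% interval -1.26 to 2.65), with a limma adjusted p of 0.992 over all genes and an exact two-sided permutation p of 0.504. Between the fifth and the sixth highest library the value changed 5.37-fold, the widest such step among the 8 members.

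Cr2 is the complement receptor gene of B cells, and in the mouse it gives rise to both complement receptors 1 and 2. Follicular dendritic cells, the stromal cells that hold antigen in the follicle, also use it. Its normalized counts were 15.1, 9.94, 173, 264, 46.9 and 174 in P. gingivalis replicates 1 to 6, and 196, 11.4, 12.3, 11.5, 9.19 and 202 in PBS replicates 1 to 6. P. gingivalis replicate 4 was the highest library, and P. gingivalis replicate 5 lay alone between the high and the low values. The log2 difference was 1.06 (SE 1.001, 95% interval -1.09 to 3.21), with a limma adjusted p of 0.992 and an exact permutation p of 0.346. The highest library exceeded the lowest 28.7-fold.

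The Cr2 promoter is shown because this gene varied most of the 8 on the log2 scale (SD 2.01 over 12 libraries). It is the RefSeq reference sequence of C57BL/6J mice, GRCm38.p6, chr1:195176670-195176969, minus strand, from 250 bases before the transcription start to 50 after it. Capitals mark matches to the motifs described with the Blnk promoter.
Cr2 promoter: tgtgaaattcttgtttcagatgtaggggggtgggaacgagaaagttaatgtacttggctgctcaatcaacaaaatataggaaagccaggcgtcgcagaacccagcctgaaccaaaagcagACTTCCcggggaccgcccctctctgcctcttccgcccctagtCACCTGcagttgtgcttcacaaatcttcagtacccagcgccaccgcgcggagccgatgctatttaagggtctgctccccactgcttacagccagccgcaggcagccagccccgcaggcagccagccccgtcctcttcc

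Fcer2a encodes CD23, the low-affinity receptor for immunoglobulin E, which is carried by follicular B cells. It was measured at 5.04, 4.52, 35.1, 64.6, 3.43 and 40.9 in P. gingivalis replicates 1 to 6, and at 42.8, 10.4, 2.84, 4.81, 5.85 and 41.0 in PBS replicates 1 to 6. The same 5 libraries were high, and the groups overlapped. Its log2 difference was 0.37 (SE 0.81, 95% interval -1.39 to 2.12, limma adjusted p = 0.992, exact permutation p = 0.758). The direction was not stable, since the difference was -0.05 without P. gingivalis replicate 4, the highest library.

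Cxcr5 is the receptor for the chemokine CXCL13 and guides B cells into follicles. Follicular helper T cells carry it as well. It was the member with the fewest reads, 2 to 35 in a library, so its low values rest on a handful of reads each. Normalized counts were 2.52, 3.62, 28.5, 20.3, 4.57 and 22.6 in P. gingivalis replicates 1 to 6, and 24.3, 2.08, 3.79, 1.92, 4.18 and 37.8 in PBS replicates 1 to 6. PBS replicate 6 was the highest of the 12 libraries. The log2 difference was 0.44 (SE 0.76, 95% interval -1.19 to 2.06, limma adjusted p = 0.992, exact permutation p = 0.645).

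Of the signalling genes, Cd79b encodes the beta chain that carries the signal of the B cell receptor into the cell. Its normalized counts were 34.0, 21.7, 102, 123, 27.4 and 85.2 in P. gingivalis replicates 1 to 6, and 132, 29.1, 26.5, 16.3, 22.6 and 109 in PBS replicates 1 to 6. As for Ms4a1, PBS replicate 1 was highest and PBS replicate 4 lowest. Cd79b had a log2 difference of 0.39 (SE 0.57, 95% interval -0.84 to 1.62, limma adjusted p = 0.992, exact permutation p = 0.567). Its range was narrower than those of Ms4a1, Cr2, Fcer2a and Cxcr5, 8.08-fold from the lowest library to the highest.

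Bank1 is a scaffold protein that links the B cell receptor to Src family kinases. Normalized counts were 78.2, 36.2, 119, 154, 62.9 and 109.6 in P. gingivalis replicates 1 to 6, and 116, 31.1, 40.7, 23.1, 25.1 and 100.4 in PBS replicates 1 to 6. Here P. gingivalis replicates 1 and 5 stood between the high and the low libraries, at values above the 4 lowest PBS libraries. The mean was 93.4 ± 42.6 in the P. gingivalis libraries and 56.1 ± 41.3 in the PBS libraries (SD, n = 6 each). The log2 difference was 0.88 (SE 0.44, 95% interval -0.07 to 1.83), with an unadjusted limma p of 0.0659, a limma adjusted p of 0.992 and an exact permutation p of 0.121.

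The Bank1 promoter is shown because P. gingivalis replicates 1 and 5 both stood between its high and low values (GRCm38.p6, chr3:136326017-136326316, minus strand, RefSeq).
Bank1 promoter: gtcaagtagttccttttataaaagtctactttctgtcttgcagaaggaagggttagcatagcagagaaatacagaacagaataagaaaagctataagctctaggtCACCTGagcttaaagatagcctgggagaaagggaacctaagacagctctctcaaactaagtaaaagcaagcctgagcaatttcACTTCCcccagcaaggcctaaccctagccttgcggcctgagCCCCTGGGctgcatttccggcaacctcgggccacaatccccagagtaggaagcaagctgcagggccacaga

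Blnk is the adaptor that couples the kinase Syk to enzymes downstream of the B cell receptor, and macrophages also use it. It differed in pattern from the other 7. Normalized counts were 248, 123, 181, 176, 174 and 177 in P. gingivalis replicates 1 to 6, and 144, 125, 123, 121, 110.3 and 179 in PBS replicates 1 to 6. Of the 6 P. gingivalis libraries, 5 lay above 5 of the 6 PBS libraries, with P. gingivalis replicate 2 low and PBS replicate 6 high. The whole range was 2.25-fold, against 6.68-fold to 29.8-fold for the other 7 members.

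Blnk averaged 179.8 ± 40.0 in the P. gingivalis libraries and 133.8 ± 24.8 in the PBS libraries (SD, n = 6 each). Its log2 difference was 0.41 (SE 0.15, 95% interval 0.08 to 0.75). It was the only member with an unadjusted limma p under 0.05 (p = 0.0182, exact permutation p = 0.0455), where 3.73% of all genes tested had one, and it did not pass over all genes (limma adjusted p = 0.992). Over all alternatives tried, the difference stayed between 0.32 and 0.52, the unadjusted p between 0.00243 and 0.0438 and the adjusted p between 0.374 and 0.9999. The highest library, P. gingivalis replicate 1, had a low Ms4a1 value of 8.82. In the same library Csf1r, a receptor of macrophages named after its values were seen, stood at 1049, while the remaining P. gingivalis libraries had 390.5 to 909.8 and PBS libraries had 421 to 704. The mean of the 19 myeloid genes was also highest there, at 7.12 log2 units. It was 6.32 to 7.07 in P. gingivalis replicates 2 to 6 and 6.47 to 6.90 in PBS. Not all of these genes were high in that library. Cd14, likewise named after its values were seen, had its lowest value of the 12 libraries there, at 8.82. The part of the myeloid genes in the Blnk difference was not tested.

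The Blnk promoter is shown as that of the member with the narrowest range (GRCm38.p6, chr19:40994172-40994471, minus strand, RefSeq).
Blnk promoter: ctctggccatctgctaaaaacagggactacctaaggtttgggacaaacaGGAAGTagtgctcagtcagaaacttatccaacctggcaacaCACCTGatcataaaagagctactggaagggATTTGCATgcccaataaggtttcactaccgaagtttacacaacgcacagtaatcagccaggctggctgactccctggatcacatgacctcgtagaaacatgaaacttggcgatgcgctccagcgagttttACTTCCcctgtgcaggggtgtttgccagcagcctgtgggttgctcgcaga

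Promoters of 5 members, Cr2, Fcer2a, Pax5, Bank1 and Blnk, were searched on both strands for 4 motifs of factors known in B cells. They gave 7 windows, since Fcer2a has 3 listed starts, and the shares below are per window, not per gene. The octamer ATGCAAAT, a site of Oct-family factors, was found in Blnk, as ATTTGCAT on the other strand, and in 1.74% of 32851 promoter windows of the same length. The E-box CAGGTG of E2A factors was found in Cr2, Bank1, Blnk and the second listed start of Fcer2a, and in 20.2% of all windows. The ETS family core GGAAGT was found in Cr2, Bank1, Blnk and the first start of Fcer2a, and in 23.8% of windows. The core of early B cell factor sites, CCCNNGGG, was found in Bank1 and in 13.7% of windows. No match overlapped another, and the windows of Pax5 and of the third Fcer2a start held none of the 4. A match describes letters only and shows no binding.

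Pax5 is the transcription factor that sets and keeps B cell identity. Its normalized counts were 6.30, 4.52, 60.3, 86.1, 8.001 and 51.3 in P. gingivalis replicates 1 to 6, and 47.8, 11.4, 5.68, 2.88, 10.9 and 68.0 in PBS replicates 1 to 6. P. gingivalis replicate 4 was highest and PBS replicate 4 lowest, 29.8-fold apart, the widest range of the 8. The log2 difference was 0.50 (SE 0.85, 95% interval -1.33 to 2.32, limma adjusted p = 0.992, exact permutation p = 0.630).

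**Figure D2:**
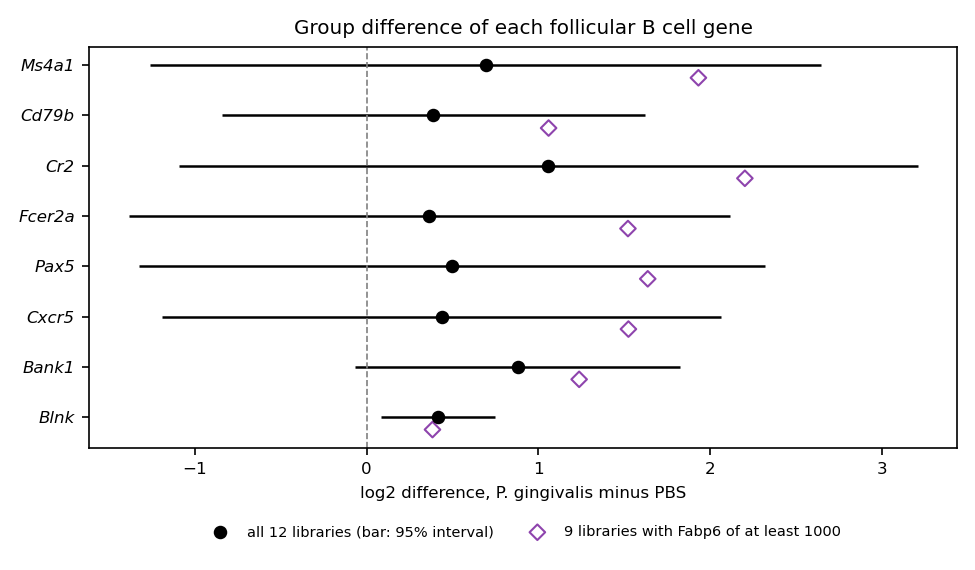
Log2 difference of each gene, P. gingivalis minus PBS, with all 12 libraries (filled circles, bars are 95% intervals without adjustment for multiple tests) and without the 3 libraries low in Fabp6 (open diamonds). With all libraries the interval reaches below 0 for every gene but Blnk, and without the 3 libraries 7 of the differences are larger.

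The group differences moved with the tool and with which libraries were counted. On the recovered reads, edgeR and DESeq2 gave log2 differences of 0.29 and 0.30 for Ms4a1, 0.62 and 0.63 for Cr2, 0.49 and 0.51 for Fcer2a, 0.22 and 0.23 for Cd79b and 0.72 and 0.73 for Bank1, and DESeq2 gave 0.15 for Cxcr5, which stood at 0.26 in the limma fit with a pseudocount of 5. With limma's sample weights the differences were 1.24 for Ms4a1, 1.62 for Cr2, 0.86 for Fcer2a, 0.78 for Cxcr5, 0.74 for Cd79b and 1.09 for Pax5. Their order of size therefore differed between fits. Without the 3 libraries low in Fabp6, which leaves 4 P. gingivalis and 5 PBS libraries, the log2 difference was 1.93 (SE 0.89) for Ms4a1, 2.20 (SE 1.03) for Cr2, 1.64 (SE 0.85) for Pax5, 1.52 (SE 0.79) for Fcer2a and 1.52 (SE 0.70) for Cxcr5. Cd79b stood at 1.06 (SE 0.61), Bank1 at 1.24 (SE 0.50) and Blnk at 0.38 (SE 0.14). In that fit 2 members had an unadjusted limma p under 0.05, Bank1 and Blnk, where 2.97% of all genes did, and 0 passed after adjustment. Of these, 3 of the 4 P. gingivalis libraries and 1 of the 5 PBS libraries belong to the 5 with high values. Of the 3 left out, PBS replicate 6 was high for all 8 members, and P. gingivalis replicates 1 and 5 were low for Ms4a1, Fcer2a, Pax5 and Cxcr5.

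The members' levels can be set against each other only per length, here per kilobase of the merged exons in GENCODE M21. Cd79b was highest, at 45.8 ± 30.3 normalized counts per kilobase in the P. gingivalis libraries and 39.1 ± 35.5 in the PBS libraries. Blnk followed, at 30.02 ± 6.67 in the P. gingivalis libraries and 22.3 ± 4.15 in the PBS libraries (SD, n = 6 each). Cr2, Bank1, Ms4a1 and Fcer2a had P. gingivalis means of 14.0, 12.5, 9.99 and 8.27 and PBS means of 9.08, 7.498, 8.12 and 5.81. Cxcr5 and Pax5 were lowest, with P. gingivalis means of 4.11 and 4.08 and PBS means of 3.70 and 2.76. Blnk and Cr2 differed by more than the SD of either gene in both groups. The other neighbours in this order differed by less than the larger of their SDs, so their order is not fixed, and the length used by each gene's main transcript may be shorter.

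Within a library the members did not keep 1 ratio to each other. The ratio of Cr2 to Ms4a1 normalized counts, without correction for length, ran from 0.786 to 2.56 in the P. gingivalis libraries and from 0.524 to 2.40 in the PBS libraries. In the 5 libraries where Ms4a1 was high, the Cr2 ratio ran only from 1.497 (PBS replicate 1) to 2.105 (P. gingivalis replicate 4). That of Blnk to Ms4a1 ran from 1.40 to 28.1 in the P. gingivalis libraries and from 1.10 to 25.2 in the PBS libraries, with its 5 lowest values in the 5 libraries where Ms4a1 was high. Bank1 to Ms4a1 ran from 1.11 to 8.86 in the P. gingivalis libraries and from 0.775 to 5.38 in the PBS libraries, again lowest in those 5 libraries. Cd79b to Ms4a1 ran from 0.867 to 3.86 in the P. gingivalis libraries and from 0.842 to 3.50 in the PBS libraries, and was lowest in those 5 libraries as well. Ms4a1 divides each of these ratios and varied 27.2-fold, against 2.25-fold for Blnk, 6.68-fold for Bank1 and 8.08-fold for Cd79b. Low ratios of these 3 genes where Ms4a1 was high therefore follow from its wider range and are not a separate result. Ms4a1 had 5 to 21 reads in each of the other 7 libraries, which limits these ratios there.

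**Figure D3:**
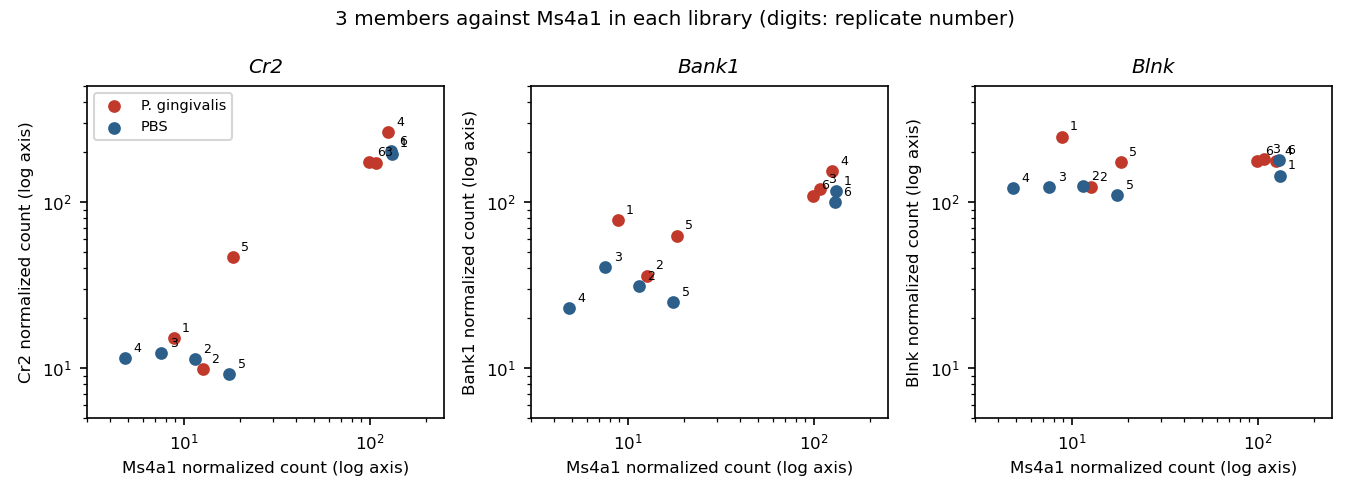
Normalized counts of Cr2, Bank1 and Blnk against those of Ms4a1 in each library, on log axes with the same ranges in all panels (red, P. gingivalis; blue, PBS; digits, replicate numbers). Cr2 is low where Ms4a1 is low, Bank1 less so, and Blnk runs from 110.3 to 248 with P. gingivalis replicate 1 highest where Ms4a1 is 8.82.

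The likeness of each member to the mean profile of the 8 was measured as a distance between centred log2 profiles. The root mean square distance over 12 libraries was smallest for Cd79b, at 0.26 log2 units, followed by Cxcr5 (0.36), Pax5 (0.44), Fcer2a (0.49), Ms4a1 (0.54), Bank1 (0.55), Cr2 (0.75) and Blnk (1.11). Each member is part of that mean. No gene among the 15017 tested outside the members was nearer than Cd79b, and 485 were nearer than Blnk.

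The 10 other genes with the nearest profiles were found by the same distance, and the 9 described here all had their 5 highest values in the same 5 libraries. The members' mean profile is itself highest in those 5 libraries, so choosing genes near it favours this pattern. Of these, 3 were genes of the B cell lists. Cd79a, the partner chain of Cd79b, lay at 0.38 log2 units, with normalized counts of 21.4, 10.8, 44.9, 50.2, 14.9 and 38.3 in P. gingivalis replicates 1 to 6, and 45.0, 9.34, 5.68, 8.65, 10.03 and 55.1 in PBS replicates 1 to 6. H2-Ob, a modulator of antigen loading in B cells, lay at 0.40 and Fcrl1, a B cell surface receptor, at 0.42. The immunoglobulin heavy chain constant genes Ighg3 (0.33) and Ighg2b (0.46) were near as well, though reads of such near-identical genes may be split between copies. Chst3, a chondroitin sulfotransferase, lay at 0.36, Gpr174, a lysophosphatidylserine receptor of lymphocytes, at 0.38, Clu, clusterin, at 0.44 and the gene model Gm8369 at 0.45.

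**Figure D4:**
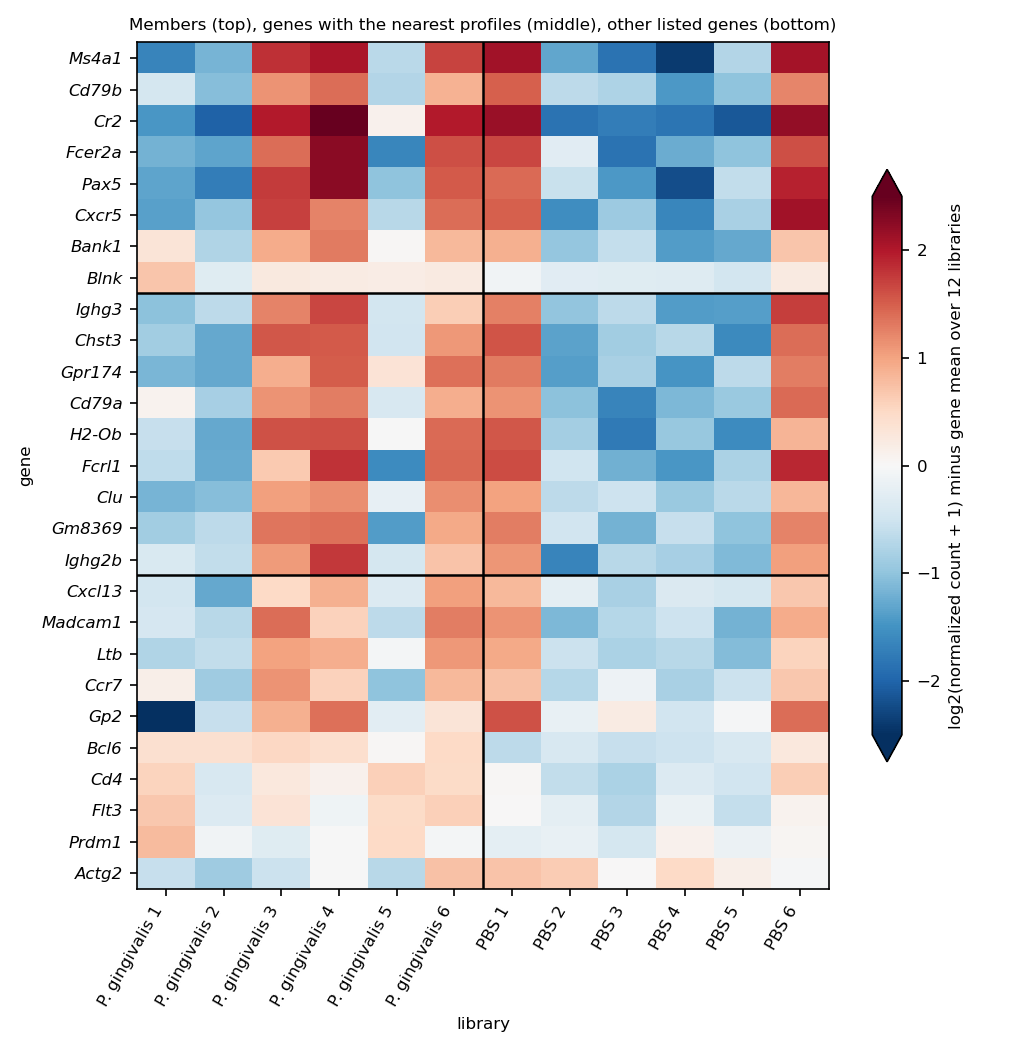
Centred log2 levels of the 8 members (top block), 9 of the 10 genes with the nearest profiles (middle block) and 10 further listed genes, 5 of them picked after their values were seen (bottom block) in each library, P. gingivalis left of the line and PBS right. Colours show log2(normalized count + 1) minus the gene's mean over 12 libraries and saturate at 2.5. P. gingivalis replicates 3, 4 and 6 and PBS replicates 1 and 6 are red for every gene of the upper blocks but Blnk, while Bcl6 lies above its mean in all 6 P. gingivalis libraries and PBS replicate 6.

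Other genes of the B cell were read from a list of 30, of which 29 were tested. Of these, 25 had positive and 4 negative differences, with a median of 0.42 log2 units beside -0.0039 over all genes, of which 48.9% were positive. None passed over all genes, and 18 had their 5 highest values in the same 5 libraries as the members. By the rule of smallest p, Stap1, an adaptor of B cell signalling, had a log2 difference of 0.83 (SE 0.34, limma adjusted p = 0.992), with means of 49.4 ± 19.4 in the P. gingivalis libraries and 28.2 ± 14.8 in the PBS libraries. Cd38, an ectoenzyme of lymphocytes and other cells, differed by 0.27 (SE 0.13). Ighd, the heavy chain of surface immunoglobulin D on naive B cells, is named after its values were seen. It ran from 6.30 to 117 in the P. gingivalis libraries and from 8.36 to 110.1 in the PBS libraries, with the same 5 libraries highest.

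The receptor signalling list held 29 tested genes, 23 with positive and 6 with negative differences and 0 called, with a median of 0.19. Of them, 5 had their highest values in the same 5 libraries, Cd79a, Cd22, Grap and Dok3 among them, which are likewise named after their values were seen. Cd79a and Cd22 were already counted among the other B cell genes. The fifth and sixth highest values were 39.9 and 35.0 for Grap and 41.0 and 37.8 for Dok3. Vav1, an exchange factor used by both B and T cells, differed by 0.46 (SE 0.16, limma adjusted p = 0.992), with means of 103.9 ± 18.0 in the P. gingivalis libraries and 76.1 ± 17.9 in the PBS libraries. Most kinases and adaptors of this list are shared with T or myeloid cells.

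Genes of the follicle around the B cells include those of stroma, chemokines and lymphotoxins. Among 17 tested genes of follicle organisers and stroma, 14 had positive differences (median 0.25), 0 were called, and 7 had their 5 highest values in the same 5 libraries. These were Cxcl13, the chemokine that CXCR5 recognises, Ccl21a, Ccr7, Ltb, Madcam1, Mfge8 and Clu, which are named for that pattern after their values were seen. Cxcl13 stood at 37.8, 20.8, 74.5, 98.0, 41.1 and 108 in P. gingivalis replicates 1 to 6, and at 92.1, 43.6, 29.3, 40.4, 38.4 and 84.2 in PBS replicates 1 to 6. By the rule of smallest p, Tnfsf13b, the B cell survival factor BAFF, averaged 42.2 ± 7.03 in the P. gingivalis libraries and 28.6 ± 5.59 in the PBS libraries, a log2 difference of 0.55 (SE 0.16, limma adjusted p = 0.778). Vcam1, an adhesion molecule of stroma and endothelium, differed by 0.41 (SE 0.19, limma adjusted p = 0.992).

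In the list for the epithelium over follicles, 4 of 13 tested genes had positive and 9 negative differences (median -0.14), with 0 called. Gp2, Spib, Clu and Nfkb2, named for that pattern after their values were seen, had their highest values in the same 5 libraries. Spib was also counted among the other B cell genes and Clu among those of follicle organisers and stroma. For Nfkb2 the step was small, from 268.5 in the fifth highest library to 263.0 in the sixth. Gp2, the uptake receptor of M cells, stood at 0, 11.8, 34.0, 47.8, 14.9 and 22.6 in P. gingivalis replicates 1 to 6, and at 56.4, 15.6, 20.8, 12.5, 17.6 and 48.6 in PBS replicates 1 to 6. The count of 0 allows up to 3 reads, or 3.78 normalized counts, in that library, for counting error only. Anxa5, an annexin, differed by -0.38 (SE 0.15) and Tnfrsf11b, the decoy receptor osteoprotegerin, by -0.56 (SE 0.25), each with a limma adjusted p of 0.992.

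Among 13 tested germinal centre genes, 0 had their 5 highest values in those libraries. Gcsam, a germinal centre signalling protein under the filter on low values and named after its values were seen, had its 5 highest values there, with 61 of its 82 reads. There were 9 positive and 4 negative differences, with a median of 0.07 and 0 called. Bcl6, the repressor that drives the germinal centre programme and is also used in other cells, had the smallest p of this list. It averaged 129.9 ± 14.6 in the P. gingivalis libraries and 77.8 ± 20.6 in the PBS libraries, a log2 difference of 0.76 (SE 0.15, limma adjusted p = 0.215). Its high values included P. gingivalis replicates 1 and 2, which were low for Ms4a1. Basp1, a membrane-associated protein, differed by -0.22 (SE 0.12, limma adjusted p = 0.992).

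Markers of other cells of the tissue are given here because bulk tissue mixes them. Of 11 tested T cell genes, 10 had positive differences (median 0.44, 0 called), and 1, Lef1, named after its values were seen, shared the 5 libraries. Cd2, Cd5, Cd6, Cd8b1 and Cd247, also named after their values were seen, had their 5 highest values there too. Their means were under 10, so they were not tested, and the other T cell genes under that filter did not share the pattern. The T cell mean ran from 4.32 to 5.24 log2 units in the P. gingivalis libraries and from 3.98 to 5.38 in the PBS libraries, and it was 5.03 in P. gingivalis replicate 1, a library low in Ms4a1. Il7r, the interleukin 7 receptor, differed by 0.41 (SE 0.17) and Cd4, the helper T cell coreceptor, by 0.53 (SE 0.24). Plasma cell genes, from B cells that have matured to secrete antibody, had 9 positive and 4 negative differences (median 0.04), with Pou2af1, a B cell coactivator, at 0.42 (SE 0.25) and Prdm1 at 0.28 (SE 0.18). Their mean ran from 7.64 to 8.10 log2 units in the P. gingivalis libraries and from 7.76 to 8.04 in the PBS libraries, a narrower range than that of the members' mean, which ran from 3.88 to 6.70 in the P. gingivalis libraries and from 3.48 to 6.55 in the PBS libraries.

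Of 19 myeloid genes 14 had positive differences (median 0.14), with Flt3, a growth factor receptor of dendritic cell precursors, at 0.55 (SE 0.21) and Clec9a, a dendritic cell lectin, at 0.74 (SE 0.39). Enterocyte genes had 5 positive and 12 negative differences (median -0.14), with Cdx2, an intestinal transcription factor, at -0.25 (SE 0.13) and Fabp2, a fatty acid binding protein, at -0.58 (SE 0.42). All 11 smooth muscle genes (median -0.51, with Actg2 at -0.67, SE 0.24, and Hspb6 at -0.54, SE 0.20) and all 7 fat cell genes (median -4.38, with Fabp4 at -2.68, SE 0.54, and Retn at -4.38, SE 0.89) had negative differences. The limma adjusted p of these 8 named genes was at least 0.228. None of the myeloid, enterocyte, smooth muscle and fat cell lists had a called gene or a gene with its 5 highest values in the members' 5 libraries. The part of these tissues in the members' differences was not tested.

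On GRCm38, with GENCODE M21, all 8 members are protein coding genes on the minus strand, and each value covers the whole gene without regard to exon or isoform. Ms4a1 lies at chr19:11249675-11266241, Cr2 at chr1:195136811-195176716, Fcer2a at chr8:3681737-3694175, Cxcr5 at chr9:44511787-44561877, Cd79b at chr11:106311341-106314762, Bank1 at chr3:136053363-136326066, Blnk at chr19:40928927-40994535 and Pax5 at chr4:44524757-44710487. The RefSeq promoter window of Blnk lies wholly inside the gene placed here, and that of Pax5 wholly outside it. For these genes the RefSeq start used is therefore not the outer end of the gene in GENCODE. Pax5 overlaps the microRNA gene Mir5120 on its own strand. Ms4a1, Pax5, Cxcr5 and Bank1 overlap genes on the opposite strand, among them the protein coding Bcl9l for Cxcr5. The sources used here do not state whether counting used strand, so reads in those overlaps are uncertain.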

How the data were processed

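Polyadenylated RNA of distal ileum was sequenced in 12 libraries. GRCm38 (mm10) is the build, and FastQC, HISAT2, Cufflinks and DESeq2 are tools, listed without roles per the submitters' processing notes; the counting method is not given in the sources used here. Each deposited value is a signal: the authors scaled a gene's count by the size factor of its library, as the table's name and its values show. Every value was a whole multiple of 1 step per library (100% within 0.001 reads), which gave whole reads. No 2 libraries were copies (smallest chi-square per degree of freedom 6.53).

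Groups were compared with limma 3.58.1 (R 4.3.3), trend option on, after taking log2(normalized count + 1), for the 15025 genes with a mean of at least 10, with two-sided tests, Benjamini-Hochberg adjustment over all of them and a threshold of 0.05. The pseudocount makes differences of low genes understated. Exact permutation tests used all 924 labelings in scipy 1.17.1. edgeR 4.0.16 and DESeq2 1.42.0 were run on the recovered reads. The steps were tested on simulated data.

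Members, lists and tests were chosen with earlier results of these data known. Named were the members, the 2 genes of each list with the smallest p and any that passed, the 10 nearest profiles, and ileal markers, except a few genes that are not reported here; others are marked as named after their values were seen. Replicate numbers come from the sample titles and did not pair the libraries.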

Additional observations from a re-analysis of the deposited data

Results flagged for a closer look

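For 49 genes given here with values, and for the members' mean, 100 groups of 6 values were checked for 1 library lying apart, and 6 were found, where chance gives about 1 in 20. None of the 6 was a member. PBS replicate 6 gave 3 of them. Its Bcl6 was 118.8 (62.8 to 75.2 in PBS replicates 1 to 5), its Fabp1 16938 (252 to 1814) and its Lct 22535 (748 to 8833). Fabp1 and Lct were also high in P. gingivalis replicates 1 and 5, which like PBS replicate 6 were low in Fabp6. Bcl6 was low, at 101.7, in P. gingivalis replicate 5, with 131.1 to 142.5 in the rest of that group. Fabp4 was high, at 1100.4, in P. gingivalis replicate 6, with 101.2 to 471 in the rest. Ccl19 was 5.71 in PBS replicate 1 and 0 in PBS replicates 2 to 6.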

How the results depend on the processing

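No alternative called a member (0 in each), and all 8 differences stayed positive except that of Fcer2a, which was -0.0483 without P. gingivalis replicate 4. Leaving out 1 library at a time gave -0.0483 to 0.74 for Fcer2a, 0.28 to 1.18 for Ms4a1, 0.14 to 0.73 for Cd79b, 0.65 to 1.601 for Cr2, 0.09 to 0.93 for Pax5, 0.14 to 0.90 for Cxcr5, 0.69 to 1.15 for Bank1 and 0.32 to 0.52 for Blnk, and 0.22 to 0.92 for their median, which was 0.47 with all 12. Over all genes limma called 0, with 560 at an unadjusted p under 0.05. It called 1 with a pseudocount of 5, 20 with sample weights, 1 without the libraries under 1000 Fabp6 and 0 to 53 when 1 library was left out, the 53 without P. gingivalis replicate 6. DESeq2 called 33 (0.181% of genes tested) and edgeR 0, with 542 at an unadjusted p under 0.05; edgeR's filter dropped Cxcr5. With the replicate number as a block limma called 0 genes and 0 members; same-numbered libraries had correlated deviations of -0.54 to 0.08, so the numbers were not used as pairs. The sparse reads of Cxcr5, Fcer2a and Pax5, down to 2 or 3 in a library, limit their low values.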

Other observations

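Some listed genes had too few reads to be tested, and Ccl19 is described after its values were seen. Ccl19, a chemokine of lymphoid stroma, had 16 reads in the P. gingivalis libraries and 8 in the PBS libraries, and all 24 lay in 4 of the 5 libraries in which Ms4a1 was high. A count of 0 allows up to 3 reads in a library, so differences among the other libraries were not detectable at this depth.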
